A study of Mus musculus with 23 samples.

Results

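Transcripts of red blood cell genes were followed through libraries of sorted mouse neutrophils and of whole lung. Of 8 genes chosen, 7 had a row among the 21878 genes listed for sorted neutrophils and among the 55335 listed for whole lung. They are the adult globins *Hba-a1*, *Hba-a2*, *Hbb-bs* and *Hbb-bt*, and *Alas2*, *Bpgm* and *Slc4a1*, while *Ahsp*, whose protein binds free alpha-globin, was not analysed here. They were selected on the difference in FPKM between *Piezo1*-cKO and WT peripheral blood (PB) neutrophils, which was already known from the same libraries, so that this difference is described here without a test.

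Hemoglobin is a tetramer of alpha- and beta-globin chains, each of which holds a haem group. ALAS2 makes the first intermediate of haem in developing red cells, BPGM makes the bisphosphoglycerate that lowers the oxygen affinity of hemoglobin, and SLC4A1 (band 3) is the anion exchanger of the red cell membrane. Mature mouse red cells have no nucleus and no ongoing transcription, whereas reticulocytes, the youngest red cells of the blood, still carry RNA that is rich in globin messages. Neutrophils are granulocytes that are made in the bone marrow (BM) and are not known as globin producers.

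The methods describe C57BL/6J mice and mice with the alleles named here, of either sex and 7 to 12 weeks old, and the age of the whole-lung mice is not stated separately. The tissue comparison used WT neutrophils of lung, PB and BM, with 3 libraries for each source. The Piezo1 experiment used both genotypes, WT and *Piezo1*-cKO, and took neutrophils from PB and from lung with 2 libraries for each pair of genotype and source. *Piezo1*-cKO mice carry *Vav1-iCre*, which acts in all blood cell lineages, red cell precursors included, and *Piezo1* fl/fl, with loxP sites around exons 20 to 23. Neutrophils were sorted as CD45+CD11b+Ly6G+ cells, with a negative selection kit used first for PB and lung, and the lungs were perfused. In the third experiment, RNA of whole lung was measured in control mice, labelled as WT and given an isotype antibody according to the methods, and in mice given anti-Ly6G antibody i.p., last injected 1 day before analysis per the methods, which leave the number of doses for these mice unspecified (3 libraries each). The study describes the tissue comparison as 3 mice. For the other experiments nothing in the sources used here says that libraries came from separate mice, so their p-values measure the spread between these libraries, which may be technical.

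Reads recovered on listed genes ran from 16502148 to 19330774 for tissue comparison libraries. The Piezo1 experiment had 9621120 to 15034817, and *Piezo1*-cKO PB replicate 1 was its shallowest library. Values are FPKM, read pairs per kilobase of gene and per 1000000 reads assigned, so that levels can be set side by side between genes. Where a gene had no reads, up to 3 may have been missed by counting error alone (0.155 to 0.312 reads per 1000000, depending on the library), and other sources of error are not covered. *Piezo1*, the targeted gene, was thinly covered in all 8 libraries. The lung libraries held 8 and 8 reads (WT) and 7 and 4 (*Piezo1*-cKO), and the PB libraries 5 and 5 (WT) and 3 and 10 (*Piezo1*-cKO). Its level therefore does not check the genotype labels, and the loxP-flanked exons hold 637 of the 8219 bases of transcript *Piezo1*-209. All 10 neutrophil markers examined, *Ly6g* and *S100a8* among them, had at least 1 FPKM in each of the 17 sorted libraries.

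The globin genes come in near-identical pairs. The coding sequence of *Hba-a1* (chromosome 11 of GRCm38, 32283672 to 32284486) and that of *Hba-a2* (chromosome 11, 32296492 to 32297310) have 426 bases each and differ at 1 base, C381T, counted from the first coding base. *Hbb-bs* (chromosome 7, 103826523 to 103827928) and *Hbb-bt* (chromosome 7, 103812524 to 103813923) have 441 coding bases each and also differ at 1, C417T. These stretches of GENCODE vM21 transcripts are shown because they hold the base, in capitals, by which a coding read could be told apart within each pair (coding bases 345 to 404 of the alpha genes and 370 to 429 of the beta genes).
Hba-a1: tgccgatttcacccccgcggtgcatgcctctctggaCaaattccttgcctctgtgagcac
Hba-a2: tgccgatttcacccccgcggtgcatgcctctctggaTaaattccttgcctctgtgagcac
Hbb-bs: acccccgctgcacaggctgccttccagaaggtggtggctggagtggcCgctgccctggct
Hbb-bt: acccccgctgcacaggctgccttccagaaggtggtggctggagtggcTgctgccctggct
Of all 150-base windows of the *Hba-a1* transcript, 48.4% also occur in that of *Hba-a2*, and 58.7% of those of *Hbb-bs* occur in that of *Hbb-bt*. Values of single globin genes are therefore uncertain within a pair, and the sum over the pair does not depend on how shared reads were assigned as long as they were counted. The alpha and beta genes share no such window.

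Sequence upstream of the genes was read from the RefSeq promoter table of build GRCm38.p6, which held 6 of the 7 genes. It is shown for 5 of them, since these genes carry the values described below and *Hba-a2* repeats *Hba-a1*. Each line gives the 250 bases before the transcription start, read on the gene's strand. Capitals mark the GATA motif (GATAA), the KLF motif (CACCC), the CCAAT box (CCAAT) and the TATA box (TATAA), each searched on both strands, and matches may overlap, as the pair of TATA boxes of *Alas2* did.
Hba-a1, chr11:32283422-32283671, plus strand: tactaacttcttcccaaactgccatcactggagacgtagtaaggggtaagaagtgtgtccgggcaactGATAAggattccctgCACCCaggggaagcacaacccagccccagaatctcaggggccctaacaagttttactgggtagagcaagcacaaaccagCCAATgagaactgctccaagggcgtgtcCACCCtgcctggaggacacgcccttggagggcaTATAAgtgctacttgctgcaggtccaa
Hbb-bs, chr7:103827929-103828178, minus strand: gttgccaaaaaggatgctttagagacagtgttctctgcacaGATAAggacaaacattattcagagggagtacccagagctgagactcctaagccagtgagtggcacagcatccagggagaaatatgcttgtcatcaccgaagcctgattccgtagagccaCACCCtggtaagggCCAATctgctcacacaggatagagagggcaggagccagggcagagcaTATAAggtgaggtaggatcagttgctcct
Hbb-bt, chr7:103813924-103814173, minus strand: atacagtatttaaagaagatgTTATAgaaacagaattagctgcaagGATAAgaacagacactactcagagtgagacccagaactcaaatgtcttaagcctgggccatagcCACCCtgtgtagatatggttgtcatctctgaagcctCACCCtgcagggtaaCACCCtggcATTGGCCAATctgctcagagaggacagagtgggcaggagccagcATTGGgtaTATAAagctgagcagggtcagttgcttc
Alas2, chrX:150547167-150547416, plus strand: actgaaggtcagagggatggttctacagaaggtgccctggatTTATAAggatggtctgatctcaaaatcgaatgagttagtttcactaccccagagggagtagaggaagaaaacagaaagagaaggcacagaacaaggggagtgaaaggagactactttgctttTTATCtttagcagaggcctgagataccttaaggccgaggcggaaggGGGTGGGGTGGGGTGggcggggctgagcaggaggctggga
Bpgm, chr6:34476106-34476355, plus strand: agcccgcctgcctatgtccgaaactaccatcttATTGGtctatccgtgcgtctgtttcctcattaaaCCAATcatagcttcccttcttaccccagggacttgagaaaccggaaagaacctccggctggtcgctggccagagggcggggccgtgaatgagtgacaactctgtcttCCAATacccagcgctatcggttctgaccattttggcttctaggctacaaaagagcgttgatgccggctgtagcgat
All 4 globin genes held each of the 4 motifs, and the upstream sequence of *Hba-a2* shares a run of 247 bases with that of *Hba-a1*. *Alas2* held 1 GATA motif, 3 KLF motifs and 2 TATA boxes and no CCAAT box, and *Bpgm* held 3 CCAAT boxes and none of the others. Among 32851 promoter windows of the same length, 22.6% held the GATA motif, 52.0% the KLF motif, 33.8% the CCAAT box and 22.8% the TATA box. The matches describe letters in these windows and not binding.

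Across the 17 sorted libraries the globin genes were low everywhere but in PB of the Piezo1 experiment, and they were highest in *Piezo1*-cKO PB. In libraries outside PB of the Piezo1 experiment, no globin gene exceeded 2.52 FPKM. *Hba-a1* had 432 and 449.8 FPKM (2322 and 3561 reads) in *Piezo1*-cKO PB, against 9.36 and 10.7 FPKM (69 and 90 reads) in WT PB. The order of its group means was *Piezo1*-cKO PB, WT PB and WT lung of the Piezo1 experiment, then BM and lung of the tissue comparison, *Piezo1*-cKO lung and PB of the tissue comparison. The ranges of BM, lung and PB of the tissue comparison and of *Piezo1*-cKO lung overlapped their neighbours in that order, and the groups above them did not. *Hba-a2* and *Hbb-bs* had the same 3 groups at the top. *Hbb-bt* had PB of the Piezo1 experiment at the top, and below it *Piezo1*-cKO lung (0 and 0.445 FPKM) and WT lung (0.107 and 0.317 FPKM) overlapped.

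**Figure D1:**
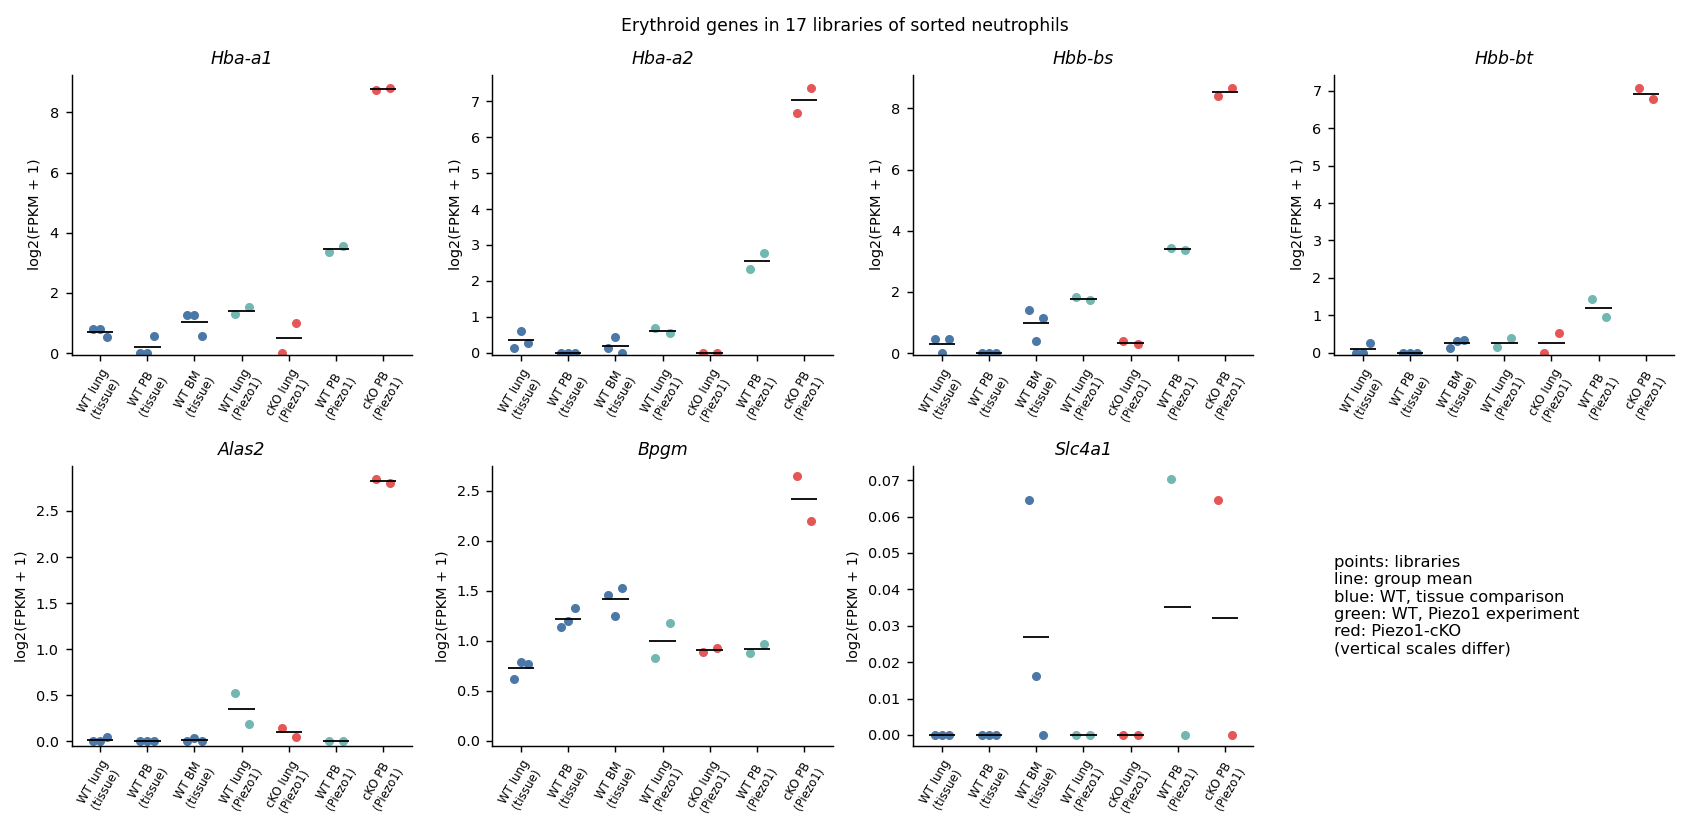
Level of 7 red cell genes as log2(FPKM + 1) in each of 17 libraries of sorted neutrophils, by group, with a line at the group mean and a separate vertical scale for each gene. *Piezo1*-cKO PB libraries lie highest for the 4 globin genes, *Alas2* and *Bpgm* (432 and 449.8 FPKM for *Hba-a1*), and *Slc4a1* has at most 4 reads in any library.

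In *Piezo1*-cKO PB neutrophils, both alpha and both beta genes were high in each of the 2 libraries. *Hba-a2* had 101 and 165 FPKM (548 and 1314 reads), against 4.04 and 5.80 in WT PB (30 and 49 reads). *Hbb-bs* had 338 and 408 FPKM (2078 and 3689 reads), against 9.73 and 9.28 in WT PB (82 and 89 reads). *Hbb-bt* had 134 and 108 FPKM (814 and 965 reads), against 1.69 and 0.951 in WT PB (14 and 9 reads). Every *Piezo1*-cKO library lay above every WT library for each of them. The ratio of mean FPKM was 43.9 for *Hba-a1*, 27.0 for *Hba-a2*, 39.2 for *Hbb-bs* and 91.9 for *Hbb-bt*, whose denominator rests on the fewest reads. Alpha genes summed to 533 and 615 FPKM and beta genes to 472 and 516, an alpha to beta ratio of 1.13 and 1.19, against 1.17 and 1.62 in WT PB.

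The genes of haem synthesis and red cell metabolism had lower levels. *Alas2* (chromosome X, 150547417 to 150570622) had 6.20 and 5.96 FPKM (118 and 167 reads) in *Piezo1*-cKO PB and no reads in either WT PB library, so that it was at least 56.3-fold higher when WT is set at 3 reads per library. *Bpgm* (chromosome 6, 34476356 to 34505136) had 5.27 and 3.58 FPKM (110 reads in each library), against 0.839 and 0.951 in WT PB (24 and 31 reads), a ratio of mean FPKM of 4.94. *Slc4a1* (chromosome 11, 102348820 to 102365281) had 2 and 0 reads in *Piezo1*-cKO PB and 3 and 0 in WT PB, which is within the 3 reads that counting error can hide. The membrane protein gene thus stayed at the detection limit in the same libraries in which *Hba-a1* had 2322 and 3561 reads. Globin FPKM were 162 and 190 times those of *Alas2* in these libraries.

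Summed over the 7 genes, *Piezo1*-cKO PB had 1017 and 1140 FPKM and WT PB 25.7 and 27.7, a ratio of 40.4. As reads per 1000000 the sums were 623 and 692 against 16.8 and 17.8. All 6 genes that passed the filter were called higher in *Piezo1*-cKO PB, where 3.65% of the 7256 genes tested were called in either direction and 1.68% higher, and since the contrast chose the genes nothing is read from this count.

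**Figure D2:**
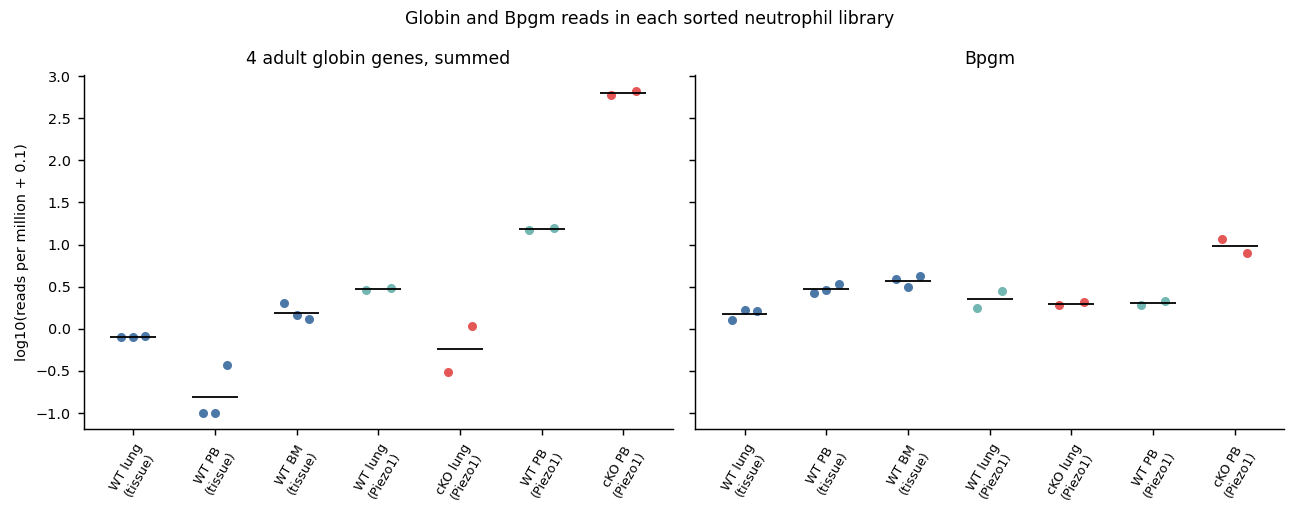
Reads of the 4 adult globin genes together (left) and of *Bpgm* (right) in each sorted library, as log10(reads per 1000000 + 0.1), with a line at the group mean of the plotted values. Globin reads span 0 to 673 per 1000000 over the libraries and *Bpgm* reads 1.17 to 11.4.

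The other erythroid genes did not move as a group in *Piezo1*-cKO PB. Of 73 further genes listed for red cells (minor globins, haem and iron, membrane and cytoskeleton, regulators, late maturation), 68 had a row and 23 passed the filter. Their median difference of log2(FPKM + 1) was -0.04, beside 0.02 for all genes tested, with 11 above 0 and 12 below. *Trim10*, a RING finger gene of red cell differentiation, had 0.351 to 0.507 FPKM in *Piezo1*-cKO PB and 0 in WT PB, and *Gfi1b*, an erythroid and megakaryocytic repressor, 1.32 to 1.37 against 0.219 to 0.458. Both were picked after their values were seen.

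Several genes of nucleated red cell precursors were at 0. *Gata1* and *Klf1*, the transcription factors of the erythroid programme, *Epor*, the erythropoietin receptor, *Zfpm1*, *Hemgn* and *Trim58* had no reads in *Piezo1*-cKO PB. These were 6 of the 13 regulators listed, and all of them but *Hemgn* had reads in both WT PB libraries, from 0.0316 FPKM to the 0.180 FPKM of *Gata1*. Besides *Trim10* and *Gfi1b*, *Nfe2* (243 to 249 against 222.0 to 222.4 FPKM), *Lmo2* (10.3 to 10.4 against 7.46 to 7.52) and *Tal1* (0.192 to 0.221 against 0.135 to 0.182) were higher in *Piezo1*-cKO PB. *Ldb1* was lower (1.74 to 2.37 against 2.97 to 3.11) and *Bcl11a* overlapped. Of 4 regulators tested, 3 were above 0 and 1 below, with a median of 0.28. Genes without reads were more frequent in *Piezo1*-cKO PB in general, where 12193 listed genes had a read, against 15148 in WT PB. The zeros given here are therefore not particular to red cell genes. Of 18 membrane and cytoskeleton genes, 10 had no reads in *Piezo1*-cKO PB, among them *Rhag*, *Kel* and *Epb42*, against 4 in WT PB. Their summed level was 1.79 to 1.92 FPKM in *Piezo1*-cKO PB and 3.62 to 3.96 in WT PB. The embryonic and minor globins had no reads in *Piezo1*-cKO PB and summed to at most 0.321 FPKM in WT PB.

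Of 16 haem synthesis and iron genes, many of which neutrophils also use, 5 were higher and 2 lower in both *Piezo1*-cKO PB libraries than in both WT PB libraries, and the rest overlapped. Of all 16021 genes with a read in these libraries, 27.9% were higher and 40.8% lower in this sense. *Alas1*, the form of the enzyme used outside red cells, had 47.0 to 55.1 FPKM in *Piezo1*-cKO PB and 54.1 to 55.0 in WT PB. *Slc25a37* (mitoferrin-1), which brings iron into mitochondria, had 3.56 to 4.24 and 5.65 to 5.82 FPKM. The ranges overlapped for *Alas1*, and *Slc25a37* was lower in *Piezo1*-cKO PB by 0.46 on the log2 scale without passing the thresholds.

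**Figure D3:**
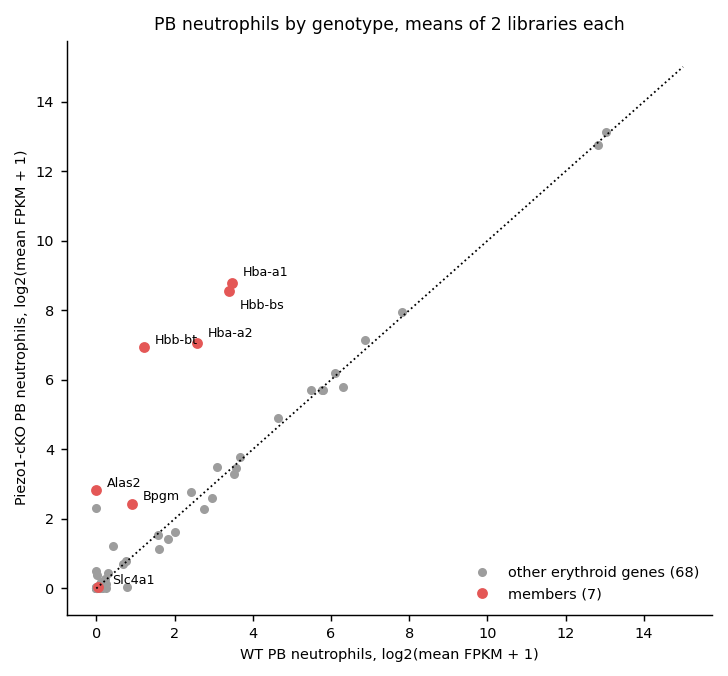
Mean level over 2 libraries in *Piezo1*-cKO PB against WT PB neutrophils, both as log2(mean FPKM + 1), for 7 red cell genes (red) and 68 other erythroid genes (grey), with a dotted line of equality. The 4 globin genes, *Alas2* and *Bpgm* lie above the line, and most grey points lie along it.

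Markers of other cells gave these values beside the globin difference. The summed level of 10 neutrophil markers was 113997 to 128924 FPKM in *Piezo1*-cKO PB and 136256 to 139950 in WT PB. Platelet and megakaryocyte markers summed to 2.55 to 2.67 FPKM against 5.02 to 5.45, with 6 of 12 at 0 in *Piezo1*-cKO PB and 3 of 12 in WT PB. *Pf4* was at 0 in both genotypes, and *Gp1bb* had 0.299 and 0.237 FPKM in *Piezo1*-cKO PB and 0 in WT PB. B cell markers summed to 0.662 to 0.927 FPKM against 0.198 to 0.586, with 3 of 5 at 0 in *Piezo1*-cKO PB and 2 of 5 in WT PB. T and NK cell markers summed to 5.86 to 6.53 FPKM against 4.39 to 4.57, with 4 of 6 at 0 in *Piezo1*-cKO PB and 3 of 6 in WT PB. The higher sums of these 2 lists thus rest on few genes. The part of these other cells in the globin levels was not tested. In bulk RNA, a change in the number of red cells carried along and a change in RNA per cell cannot be told apart.

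The lung neutrophils of the same genotypes did not share the high levels. Globin reads were 0.204 and 0.982 per 1000000 in *Piezo1*-cKO lung, where PB had 599 and 673. In WT they were 2.82 and 2.99 in lung and 14.8 and 15.8 in PB. *Hbb-bs* had 24 and 22 reads in WT lung (2.52 and 2.29 FPKM), and the *Piezo1*-cKO lung libraries had 3 and 2 (0.319 and 0.219 FPKM). The groups did not overlap, as for 26.3% of the 14990 genes with a read there, whose *Piezo1*-cKO libraries were both lower, and *Hbb-bs* was lower in *Piezo1*-cKO lung by limma on log2(FPKM + 1), at -1.42 with a standard error of 0.0963 and an adjusted p of 0.000108. It passed the filter through the WT libraries alone, where it was high, so that this p is no support for a difference. Without the filter limma gave an adjusted p of 0.00843, and the fold understates the change of low genes on this scale.

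*Hba-a1* had 12 and 16 reads in WT lung (1.44 and 1.90 FPKM), and the *Piezo1*-cKO lung libraries had 0 and 8 (0 and 1.00 FPKM). Its log2 fold change of -0.91 (standard error 0.32) had an adjusted p of 0.0613 from limma and was not called. On recovered reads, edgeR called it with -1.84 (adjusted p = 0.0215), and DESeq2 did not (adjusted p = 0.492), and they called 5.36% and 4.83% of all genes. *Hba-a2* had 0 and 0 reads in *Piezo1*-cKO lung and 5 and 4 in WT lung, which makes it at least 1.45-fold lower.

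*Alas2* had 13 and 4 reads in WT lung (0.441 and 0.134 FPKM), and the *Piezo1*-cKO lung libraries had 3 and 1 (0.103 and 0.0354 FPKM). Its groups did not overlap, but it lay below the filter and was not tested by limma. *Hbb-bt* had 0 and 4 reads in *Piezo1*-cKO lung and 1 and 3 in WT lung, and *Bpgm* had 27 and 28 against 25 and 41, so that both overlapped. *Slc4a1* had no reads in lung of either genotype.

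Of the 2 genes that passed the filter in lung, 1 was called lower, where 0.995% of all genes tested were called in either direction and 0.202% lower. This count is no support for a difference, since *Hbb-bs* reached the filter in WT only. With either WT lung library left out it no longer passed and 0 genes were called, and without *Piezo1*-cKO lung replicate 2, which held all 8 *Hba-a1* reads of that group, 2 were called, with *Hba-a1* at -1.41 and likewise reaching the filter in WT only. On recovered reads without a filter, an alternative chosen after the values were seen, edgeR gave *Hbb-bs* -3.21 (adjusted p = 0.0145), where 6.26% of 14990 genes were called. Of the other erythroid genes, 21 were tested in lung and 0 were called by limma, edgeR or DESeq2, with 13 at an unadjusted p below 0.05 by limma, beside 3691 of all 6434 genes, and a median of 0.05 beside 0.09.

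**Figure D4:**
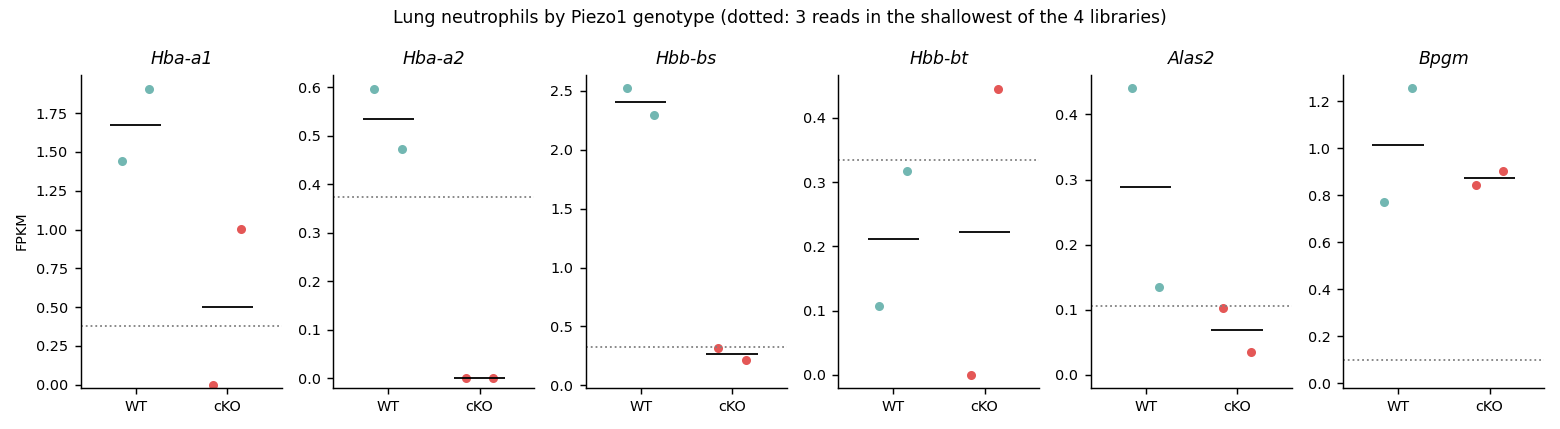
FPKM of 6 red cell genes in lung neutrophils by genotype, with 2 libraries for WT and 2 for *Piezo1*-cKO, with a line at the group mean, a separate vertical scale for each gene and a dotted line at 3 reads in the shallowest of the 4 libraries. *Hba-a1*, *Hba-a2*, *Hbb-bs* and *Alas2* are lower in both *Piezo1*-cKO libraries (0.319 and 0.219 against 2.52 and 2.29 FPKM for *Hbb-bs*), and *Hba-a2* has no reads in *Piezo1*-cKO.

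In the tissue comparison, which asked how WT neutrophils differ between lung, PB and BM, the globin genes were lowest in PB. Globin reads per 1000000 were 0.700, 0.699 and 0.727 in lung, 0, 0 and 0.269 in PB, and 1.93, 1.35 and 1.20 in BM. The ranges of the 3 tissues did not overlap, but the share of all genes that separate in this way was not counted. The lung libraries held 12 globin reads each and the PB libraries 0, 0 and 5. In PB, *Hba-a2*, *Hbb-bs*, *Hbb-bt*, *Alas2* and *Slc4a1* had no reads in any of the 3 libraries, and *Hba-a1* had 0, 0 and 5 reads.

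BM neutrophils held the most globin reads of the 3 tissues. *Hbb-bs* had 20, 4 and 14 reads in BM (1.05 ± 0.665 FPKM, SD, n = 3), 4, 0 and 4 in lung (0.248 ± 0.215 FPKM) and none in PB, so that PB was at least 4.07-fold lower than BM. *Hba-a1* had 15, 15 and 5 reads in BM and 7, 7 and 4 in lung, which overlapped. *Hba-a2* and *Hbb-bt* had at most 5 reads in any library of lung or BM. *Slc4a1* had 4, 1 and 0 reads in BM and none elsewhere, and *Alas2* 1 read in 1 lung and 1 BM library.

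*Bpgm* was the 1 gene of the 7 that passed the filter between tissues, and it was not called in any pair. It had 20, 27 and 25 reads in lung (0.653 ± 0.101 FPKM), 46, 52 and 61 in PB (1.34 ± 0.160 FPKM) and 73, 58 and 75 in BM (1.67 ± 0.259 FPKM; SD, n = 3 each). Lung was lower than PB by limma, at -0.50 on the log2 scale (standard error 0.0896, adjusted p = 0.000911), within the fold threshold of 1, and edgeR and DESeq2 gave adjusted p of 0.154 and 0.308. The median over all genes tested was -0.54 in that pair, so that *Bpgm* stood 0.04 above the median gene. Against BM, lung was at -0.69 (standard error 0.0904, adjusted p = 3.63e-05 from limma; median gene -0.70), and PB was at -0.19 (adjusted p = 0.113 from limma; median gene -0.12). By edgeR, which scales out most of that shift, *Bpgm* was at -0.41 in lung against PB (median gene -0.03) and -0.55 in lung against BM (median gene -0.07; adjusted p = 0.0368), and with a pseudocount of 0.1 limma gave -0.93 and -1.23 (median gene -0.64 and -0.86). Its distance from the median gene thus depended on the scale.

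Of all genes tested, limma called 27.2% in the pair lung and PB, 45.9% in lung and BM, and 22.0% in PB and BM. The direction of these calls rested on the scaling, with 587 higher and 1476 lower in lung than in PB by limma and 1067 and 863 by edgeR. Without a filter, edgeR called 2 of the 7 genes between lung and PB, *Hba-a2* (4.84, adjusted p = 0.0296) and *Hbb-bs* (4.85, adjusted p = 0.0344), where 19.6% of genes were called. Between PB and BM, edgeR without a filter called *Hbb-bs* (-6.60, adjusted p = 0.000371) and *Hba-a1* (-2.54, adjusted p = 0.0240), where 25.5% were called. For lung against BM it called 0 of 7 with 1 at an unadjusted p below 0.05, where 37.6% were called. These fitted values rest on a PB group without reads, or for *Hba-a1* on 5 reads in 1 PB library, and are not bounds on the fold. This setting was chosen after the values were seen.

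Calls among the other erythroid genes, many of which neutrophils use too, were about as frequent between tissues as among all genes. Of 24 tested between lung and PB, 5 were called beside 27.2% of all genes, 2 higher and 3 lower in lung, with a median of -0.45 beside -0.54. *Fth1*, the ferritin heavy chain, rose from 3185 ± 217 to 12880 ± 285 FPKM (log2 fold change 2.02, adjusted p = 6.11e-08 from limma, n = 3 each), *Bcl2l1* was higher (1.25), and *Nfe2* (-1.70), *Mkrn1* (-1.64) and *Hmox1* (-1.20) were lower. With FPKM rescaled by the median ratio these were 2.61, 1.78, -1.11, -1.06 and -0.61, in the same order and direction, and *Hmox1* no longer passed the fold threshold. In lung against BM, 12 of 28 were called beside 45.9%, 3 higher and 9 lower (median -0.48 beside -0.70). In PB against BM, 8 of 28 were called beside 22.0%, 4 higher and 4 lower (median -0.09 beside -0.12).

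The WT libraries of the experiments stood apart in these genes. Globin reads in WT PB were 15.3 ± 0.701 per 1000000 in the Piezo1 experiment (SD, n = 2) and 0.0896 ± 0.155 in the tissue comparison (SD, n = 3). In WT lung they were 2.91 ± 0.122 and 0.709 ± 0.0159, a ratio of 4.10. The order of lung and PB was thus opposite between the experiments, and each pair of ranges did not overlap. The share of all genes with such separation was not counted. The tables were normalized separately and a test across them was not made, and experiment and any difference in handling cannot be told apart. *Bpgm* did not follow, with 1.82 and 2.06 reads per 1000000 in WT PB of the Piezo1 experiment and 2.60, 2.82 and 3.28 in the tissue comparison.

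The genes whose levels followed the mean log2 level of the 7 genes most closely differed between the experiments. Over the 9 libraries of the tissue comparison they were *Trem3*, *Pomp*, *C1qb*, *Nacc1* and *Adat2* (Pearson r of 0.970 to 0.986 among 8587 genes). Over the 8 libraries of the Piezo1 experiment they were *Ndufa11*, *Pqbp1*, *Mutyh*, *Olfr458* and *Mtap* (r of 0.992 to 0.995 among 7554 genes). The last 5 were highest in *Piezo1*-cKO PB, as were the genes they were ranked on, and the libraries of an experiment share their groups, so that r is a description only. *Pqbp1*, for example, had 38.3 and 39.6 FPKM there and at most 30.8 elsewhere. In the tissue comparison the 7 genes did not follow one another closely. The r of each against the mean of the others ran from 0.05 for *Hba-a2* to 0.72 for *Slc4a1*, so that their mean is not a shared profile there. In the Piezo1 experiment this r was 0.405 for *Slc4a1* and 0.936 to 0.991 for the other genes.

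Whole lung, a bulk tissue with its blood cells, held red cell transcripts in other proportions. Globins summed to 1160 to 1673 FPKM in control lungs and 640.5 to 1451 in neutrophil-depleted lungs, beside 1005 and 1130 in *Piezo1*-cKO PB neutrophils. Alpha to beta ratios were 0.676 to 0.827 over the 6 libraries, below the 1.13 and 1.19 of *Piezo1*-cKO PB, and the ratio of *Hba-a1* to *Hba-a2* was 0.987 to 1.09 against 4.27 and 2.73. The whole-lung values were normalized in a separate table that lists other genes, so that these ratios were not tested against each other. Both ratios also depend on how reads shared within a pair were counted, which may differ between the experiments. *Bpgm* had 11.4, 12.1 and 12.3 FPKM in control lungs and *Slc4a1* 0.267, 0.221 and 0.0681.

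Depletion of neutrophils was not followed by a called difference in these genes. *Hbb-bs* had 444, 732 and 463 FPKM in control lungs and 588, 274 and 579 in depleted lungs (log2 fold change -0.23, adjusted p = 0.839 from limma). *Hba-a1* had 269, 337 and 249.9 FPKM in control lungs and 317, 137 and 311 in depleted lungs (-0.25, adjusted p = 0.822 from limma). *Alas2* had 4.48, 4.75 and 4.23 FPKM in control lungs and 7.09, 2.20 and 6.19 in depleted lungs (0.06, adjusted p = 0.971 from limma). Depleted replicate 2 was the lowest of the 6 libraries for each globin gene and for *Alas2*, and without it the log2 fold changes of the 4 globin genes were 0.09 to 0.21.

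*Bpgm* had 9.54, 8.16 and 9.86 FPKM in depleted lungs, all below the controls. Its log2 fold change was -0.35 (standard error 0.0879, adjusted p = 0.235 from limma). Of the 6 genes tested 0 were called, with 1, *Bpgm*, at an unadjusted p below 0.05, where 0.00715% of 13990 genes were called and 1570 had an unadjusted p below 0.05. Of 39 other erythroid genes 0 were called by limma, with 4 at an unadjusted p below 0.05 and a median of -0.05 beside -0.04 for all genes. Neutrophil markers summed to 223 to 284 FPKM in control lungs and 50.6 to 136 in depleted lungs, with 9 of 9 tested below 0 (median -1.33) and 0 called.

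**Figure D5:**
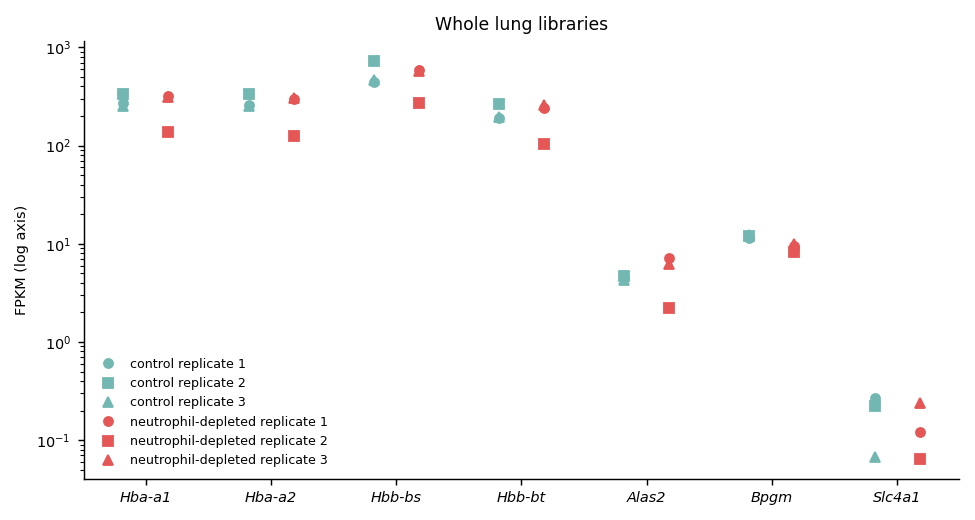
FPKM on a log axis of 7 red cell genes in whole lung in 3 control and 3 neutrophil-depleted libraries, with a symbol for each replicate number. Depleted replicate 2 is lowest for the globin genes and *Alas2* (274 against 444 to 732 FPKM in controls for *Hbb-bs*), and for these genes the other depleted libraries lie among the controls or above them. For *Bpgm* all 3 depleted libraries lie below the controls.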

How the data were processed

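Poly(A) RNA was sequenced as 150-base read pairs. Per the methods, the authors trimmed reads with fastp and aligned them with HISAT2 to a reference genome, whose build is not named there for bulk RNA. They counted genes with HTSeq and deposited FPKM values, with tool versions not given in the sources used here. The authors also deposited group means of reads divided by DESeq2 size factors (a signal per gene), used only to check the recovered reads, and columns of fold changes and p-values, which were not used. Labels and methods name different library kits.

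Whole reads were recovered from FPKM in the 17 sorted libraries (100% of values whole within 0.02 reads, 690 genes up to a common factor) but not in whole lung. Genes with FPKM of at least 1 in 3 libraries (2 in the Piezo1 experiment) were tested as log2(FPKM + 1) with limma 3.58.1 (R 4.3.3, trend and robust), Benjamini-Hochberg over all genes tested, and called at an adjusted p below 0.05 and a log2 fold change beyond 1 (0.5 in whole lung). Alternatives were a pseudocount of 0.1, no filter, rescaling by the median ratio, a replicate block, each library left out, and edgeR 4.0.16 and DESeq2 1.42.0 on recovered reads. The fits were tested on simulated data. The genes and lists were chosen with earlier results of these data known. Named from the wider lists were called genes, and others singled out were picked after their values were seen. Some genes of the wider lists are not reported here.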

Additional observations from a re-analysis of the deposited data

Results flagged for a closer look

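For 4 genes every *Piezo1*-cKO library lay above every WT library in PB and below every WT library in lung. The same held for 5.82% of the 17527 genes with a read in these libraries, a share that does not apply to genes chosen on their PB values. In lung alone, 26.3% of 14990 genes were lower in this sense. *Hba-a1* and *Hba-a2* form a pair whose single values are uncertain. *Alas2* had 4 reads in 1 WT lung library and 3 in 1 *Piezo1*-cKO lung library. The *Piezo1*-cKO minus WT difference of log2(FPKM + 1) was 5.32 in PB and -0.91 in lung for *Hba-a1*, and 4.47 and -0.62 for *Hba-a2*. It was 5.15 and -1.42 for *Hbb-bs*, and 2.82 and -0.26 for *Alas2*. The difference between PB and lung itself was not tested, and the PB values chose the genes. In lung the *Piezo1*-cKO libraries held at most 8 reads of any of these genes.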

How the results depend on the processing

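Of the alternatives to counts and sums, 114 of 126 values stayed near the main value, counts of 0 that stayed 0 included. Some of these could not move. With a PB library left out of lung against PB, or a BM library left out of lung against BM, 0 of the 7 genes were tested. The tally is therefore no measure of how stable the results are. The 7 genes gave 0 calls between tissues with limma, but 2 for lung against PB and 2 for PB against BM by edgeR without a filter (chosen after seeing the data), and 1 for lung against BM with a pseudocount of 0.1. In *Piezo1*-cKO against WT lung, limma called 1, edgeR 2, and with 1 library left out 0 to 2, the 0 arising because *Hbb-bs* missed the filter without either WT lung library (a group left with 1 library was assumed to vary like the other). Of the wider erythroid list, edgeR without a filter, which tests more genes, called 14 for lung against PB (5 by limma), 19 for lung against BM (12), 13 for PB against BM (8) and 2 in lung by genotype (0). With 1 library left out, lung against BM gave 7 to 12. In whole lung, log2 fold changes with 1 library left out ran from -0.45 to 0.15 for *Hba-a1*, -0.54 to 0.092 for *Hba-a2*, -0.42 to 0.13 for *Hbb-bs*, -0.44 to 0.21 for *Hbb-bt* and -0.19 to 0.48 for *Alas2*. The ratio of summed FPKM in PB stayed between 37.9 and 42.7. Same-numbered libraries did not deviate together (correlations -0.0890 to 0.0593), so numbers were not treated as pairs. The replicate block changed no call of the 7 genes, and moved all calls from 64 to 62 in lung by genotype, 265 to 263 in PB by genotype, 1811 to 1812 for PB against BM and 1 to 5 in whole lung. The cause of other changes was not tested. No sorted library outside *Piezo1*-cKO PB held more than 90 reads of any of the 7 genes, and edgeR and DESeq2 were not run in whole lung, where depth is unknown.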
